A study of Homo sapiens with 18 samples.

Results

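Expression of 56 cell cycle genes was examined in RWPE1 cells, a benign human prostate epithelial line immortalised with a human papillomavirus, carrying inducible MACC constructs. The genes were taken by symbol from a fixed list of 27 S phase genes, 28 G2/M genes and the cyclin-dependent kinase inhibitor CDKN1A, out of 57773 genes in the deposited count table. Each MACC joins a DNA-binding domain to the tamoxifen-responsive ERT2 domain and a 3X FLAG tag. The neutral MACC carries no further domain, the repressive MACC adds KRAB and the activating MACC adds VP64. All 3 lines were made by lentiviral transduction and blasticidin selection, so the vehicle groups also carry a construct and no parental line is among the groups. Each line received EtOH vehicle or tamoxifen for 48 hours, with 3 biological replicates in each of the 6 groups. Tamoxifen was at 1.5 uM by the treatment label and at 1.25 uM by the protocol label, which was not resolved. The question put to these data was whether the repressive or activating MACC, once induced, moved the expression of genes for DNA replication and mitosis in benign prostate cells.

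S phase genes are switched on as cells commit to replicate their DNA. They encode the MCM helicase that unwinds the duplex, the polymerase and repair enzymes of the fork, the enzymes that supply nucleotides and the chaperones that repackage chromatin. G2/M genes follow later in the cycle and encode the kinases, cyclins, condensins, motor proteins and ubiquitin ligase factors of mitosis. E2F factors act on many S phase promoters, whereas G2/M promoters often carry a cell cycle homology region (CHR) next to CCAAT boxes. CDKN1A (p21) restrains cyclin-dependent kinases and is induced by p53. The papillomavirus oncoproteins of immortalised lines of this kind target RB and p53.

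The promoters show the difference between both gene lists in their letters. RefSeq promoter windows on build GRCh38.p14, each 300 bases long with 250 bases before the start and 50 after it, were matched by symbol for 44 of the 56 genes, 21 of them S phase and 22 G2/M. Some genes have several windows. Either of 2 E2F sequences, TTTGGCGC or TTTCCCGC, was searched on both strands and stood in 11 of 30 S phase windows (36.7%), in 1 of 26 G2/M windows (3.85%) and in 2.27% of all 35116 promoter windows. The core CHR sequence TTTGAA stood in 2 of 30 S phase windows (6.67%), in 20 of 26 G2/M windows (76.9%) and in 15.2% of all windows. CCAAT was found in 76.7% of the S phase windows, 80.8% of the G2/M windows and 34.6% of all windows. A match is a description of the letters and does not show binding. The promoters of FEN1, MCM7 and NCAPD2 are given here. FEN1 had the largest difference under tamoxifen among the cell cycle genes tested, and NCAPD2 had the most counts of the 56. MCM7 shares promoter bases with a gene on the other strand whose row held more counts. Capitals mark the E2F sequence in MCM7 (read on the other strand, positions -187 to -180 from the start) and the CHR sequence in NCAPD2 (-145 to -140), and the FEN1 window held none of the sequences searched. The FEN1 window, chr11:61792661-61792960 on the plus strand, shares 189 bases with that of TMEM258, which is read the other way. The MCM7 window shown, chr7:100101348-100101647 on the minus strand, shares 255 bases with that of AP4M1 on the plus strand. It was chosen from several MCM7 windows because it holds the E2F sequence, which the others lack. The NCAPD2 window is chr12:6493852-6494151 on the plus strand.
FEN1: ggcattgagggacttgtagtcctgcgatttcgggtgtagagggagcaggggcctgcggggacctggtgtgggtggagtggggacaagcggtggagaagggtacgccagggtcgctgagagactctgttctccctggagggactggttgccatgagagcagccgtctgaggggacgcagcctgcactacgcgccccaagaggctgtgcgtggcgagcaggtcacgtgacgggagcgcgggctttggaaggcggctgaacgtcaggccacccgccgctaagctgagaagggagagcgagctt
MCM7: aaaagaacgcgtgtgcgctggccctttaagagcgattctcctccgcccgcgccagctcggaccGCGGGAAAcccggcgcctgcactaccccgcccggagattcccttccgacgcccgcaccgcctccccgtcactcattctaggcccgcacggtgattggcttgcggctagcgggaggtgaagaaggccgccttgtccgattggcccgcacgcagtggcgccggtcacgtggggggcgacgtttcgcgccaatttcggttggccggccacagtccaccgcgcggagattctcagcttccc
NCAPD2: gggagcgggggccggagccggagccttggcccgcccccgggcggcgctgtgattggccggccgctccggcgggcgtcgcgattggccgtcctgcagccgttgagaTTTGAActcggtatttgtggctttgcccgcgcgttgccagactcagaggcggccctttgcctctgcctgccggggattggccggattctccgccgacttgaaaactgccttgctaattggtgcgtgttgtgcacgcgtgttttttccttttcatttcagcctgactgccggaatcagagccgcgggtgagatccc

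The cell cycle genes held few counts in these libraries. Total counts per library were between 675609 and 792282, and the 56 genes took 0.0777% to 0.112% of them. None was at 0 in all libraries, but 31 had 0 counts in at least 1 library and 22 had a mean count under 3. A count of 0 allows up to 3.79 to 4.44 CPM (counts scaled to a common library total of 1000000) at a floor of 3 counts, and such floors cover counting error only. Per kb of annotated exon, the median over the 55 genes matched to the annotation was 0.874 counts. The highest were HMGB2 (28.3), a chromatin bending protein, the condensin subunit NCAPD2 (27.3), the tubulin TUBB4B (17.9) and UBE2C (16.4), the ubiquitin-conjugating enzyme that serves the anaphase-promoting complex. The lowest were the replicative polymerase subunit POLA1 (0.0107), with 3 reads in all, and the chromatin remodeller HELLS (0.0351). NCAPD2 alone supplied 24.9% of the counts of the 56 genes.

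Of the 56 genes, 24 had at least 10 counts in at least 3 libraries and were tested, out of 5816 genes tested in all. Among the S phase genes 10 of 27 were tested, namely the helicase subunits MCM2, MCM4, MCM5 and MCM7, the thymidylate synthase TYMS, the flap endonuclease FEN1, the methylation maintenance factor UHRF1, the histone chaperones NASP and CHAF1B, and cyclin E2 (CCNE2). Among the G2/M genes 13 of 28 were tested, namely the proliferation antigen MKI67, TOP2A, UBE2C, TPX2, NUSAP1, SMC4, CDC20, ANLN, TACC3, NCAPD2, HMGB2, TUBB4B and CKAP5. CDKN1A was tested too. CHAF1B lay just inside the limit, with 3 libraries at 10 counts or more, and the mitotic kinase AURKA just outside, with 2. The S phase genes below it were MCM6, PCNA, RRM1, RRM2, UNG, GINS2, DTL, PRIM1, HELLS, RPA2, SLBP, POLD3, ATAD2, CDC45, CDC6, CLSPN and POLA1. The G2/M genes below it were CDK1, CCNB1, CCNB2, BIRC5, CENPF, AURKA, AURKB, BUB1, KIF11, KIF23, TTK, HMMR, CKS2, CKS1B and ECT2. Several of these are the usual markers of cycling cells. CDK1, the kinase that drives mitosis, had 0 to 3 counts and was at 0 in 12 of 18 libraries. Its partner cyclin B1 (CCNB1) had 0 to 6 counts, the polymerase clamp PCNA 0 to 16, the ribonucleotide reductase subunit RRM2 0 to 10, survivin (BIRC5) 0 to 7 and the kinetochore protein CENPF 1 to 11. These 32 genes were left out by the filter on low counts, so their differences between groups were not tested in the fit as reported. The tested genes were at ordinary levels for the table, with a median normalized count of 16.4 for S phase and 17.2 for G2/M genes beside 16.6 for all genes tested.

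Many of the genes overlap a gene on the opposite strand, and that row was often the larger one. The kit marks the strand of a transcript, but the strand setting of the counting is not given in the sources used here. Exons of 21 of the 56 genes overlapped exons of an opposite-strand gene in the GRCh37 annotation, and for 17 of them that gene had a row in the table. Per kb of exon, 14 of these 17 opposite rows had the higher mean count, and without scaling for exon length 9 had. Some pairs were nearly equal per kb, such as TACC3 (2.03) beside TMEM129 (2.13). The share over all overlapping pairs of genes was not computed. MCM7 (chromosome 7, 99689856 to 99699563, minus strand) had 5.06 counts per kb, beside 178 for AP4M1, an adaptor complex subunit that shares 392 exonic bases with it. The condensin subunit SMC4 had 1.9 counts per kb, beside 164 for TRIM59, with 1553 shared bases. TYMS had 9, beside 48.3 for ENOSF1, with 967 shared bases, and CCNE2 had 8.63, beside 27.8 for INTS8, with 1629. Summed over the 17 pairs, the mean count per library was 360 for the cell cycle genes and 3198 for their opposite rows. AP4M1 also overlaps TAF6 on the minus strand, over 1418 bases, so its counts cannot be assigned to the MCM7 side alone. Whether reads of these genes were counted on the opposite row was not tested.

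**Figure D1:**
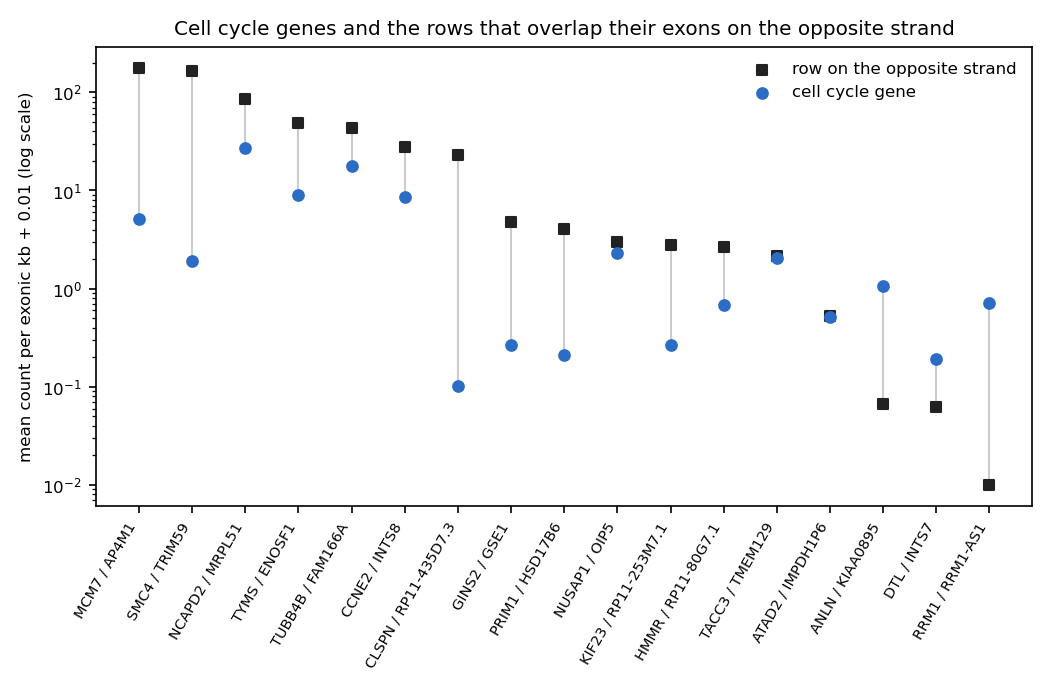
Mean count per kb of annotated exon over the 18 libraries (log axis, 0.01 added) for the 17 cell cycle genes (circles) whose opposite-strand neighbour has a row in the table (squares), ordered by the neighbour's level. In 14 pairs the square is the higher one, by most in CLSPN, SMC4 and MCM7, and in ANLN, DTL and RRM1 the circle is higher.

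In the DESeq2 fit as reported, tamoxifen left the tested cell cycle genes without a call in each line. DESeq2 called 0 of 24 at an adjusted p under 0.05 with the neutral, the repressive and the activating MACC, against backgrounds of 0.774%, 9.65% and 2.8% of all genes tested. Because the tool withholds an adjusted p from low-count genes, only 1, 21 and 2 of the 24 received one, so the count of 0 rests chiefly on the repressive line. With an unadjusted p below 0.05 the numbers were 0, 1 and 2 of 24 (all genes 7.75%, 19.7% and 10.4%), and edgeR called 0, 0 and 1 (all genes 0.378%, 8.99% and 1.75%). Vehicle and tamoxifen values did not overlap in 2, 5 and 4 of 24 genes, beside 13.3%, 24.2% and 16% of all genes. Of these genes 1, 1 and 1 were higher under tamoxifen and 1, 4 and 3 were lower. Of all 5816 genes, 385, 731 and 456 were higher without overlap and 387, 677 and 476 were lower. The median log2 fold change of the S phase genes was -0.25, -0.09 and 0.23 in the neutral, repressive and activating line, and that of the G2/M genes was 0.29, -0.08 and 0.15, with medians over all genes tested between -0.02 and 0.01. The standard errors were wide, with a median near 0.50 on the log2 scale, and the 95% interval lay inside a 2-fold change in 5 of 24 genes in each line. In bulk RNA, fewer cycling cells and less RNA per cycling cell cannot be told apart.

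**Figure D2:**
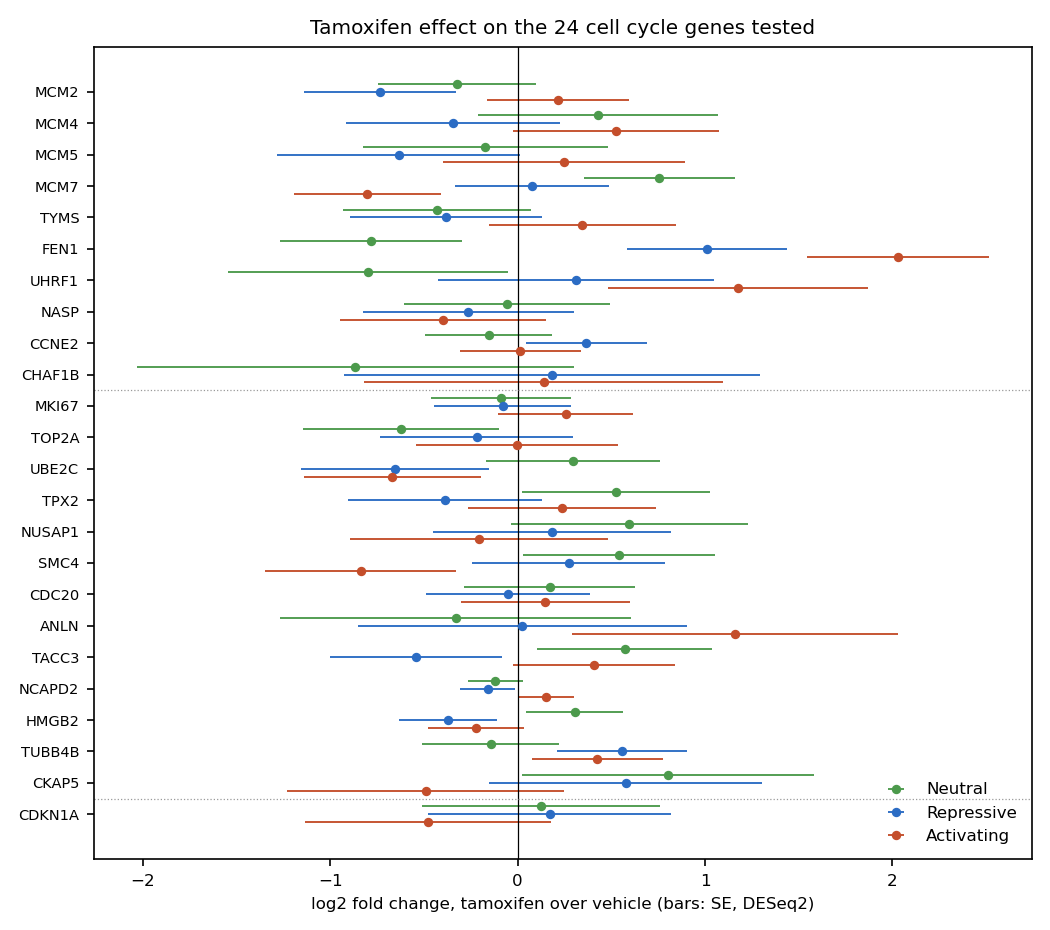
Log2 fold change of tamoxifen over vehicle, with its standard error, for the 24 cell cycle genes tested in the neutral, repressive and activating lines; dotted lines part S phase genes, G2/M genes and CDKN1A. Most bars span 0, and FEN1 in the activating line lies farthest out at 2.03.

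FEN1, which trims the flaps of Okazaki fragments, differed most under tamoxifen. It lies at chromosome 11, 61560383 to 61564710, on the plus strand of GRCh37. With the activating MACC its normalized counts were 8.3, 10.6 and 2.7 under vehicle and 30.4, 26.1 and 31.3 under tamoxifen. All 3 tamoxifen libraries were above all 3 vehicle libraries. The log2 fold change was 2.03 (SE 0.49; 95% interval 1.08 to 2.98), a 4.09-fold higher level. DESeq2 withheld the adjusted p for this gene, which was 0.00307 without that withholding step (2.2% of all genes called), and edgeR called it with an adjusted p of 0.00675. With the repressive MACC the counts were 16.1, 20.7 and 14.7 under vehicle and 50.5, 25.5 and 27.2 under tamoxifen. These groups also did not overlap, but the first tamoxifen library stood well above the other two, and the log2 fold change of 1.01 (SE 0.43) was not called (adjusted p 0.113). It was 0.62 without that library. With the neutral MACC FEN1 was at 19.8, 14.3 and 16.7 under vehicle and 12.5, 5.8 and 11.2 under tamoxifen, a difference of -0.78 (SE 0.48) that was not called.

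The tamoxifen effects on FEN1 were also compared between lines. The effect in the activating line exceeded that in the neutral line by 2.81 on the log2 scale (SE 0.69), again with no adjusted p from DESeq2, 0.0199 without the withholding step (0.378% of all genes called) and 0.0459 with edgeR. The effect in the repressive line exceeded the neutral one by 1.79 (SE 0.65, adjusted p 0.0668). The activating and repressive effects differed by 1.02 (SE 0.65, adjusted p 0.449). The vehicle libraries enter these differences, and the activating vehicle group was the lowest of the 6 groups, 1.24 below the neutral vehicle on the log2 scale (SE 0.51, no adjusted p). FEN1 shares 49 exonic bases with FADS2, a fatty acid desaturase on the same strand. FADS2 was at 16.6, 16.4 and 14.5 normalized counts under vehicle and 35.5, 40 and 37.8 under tamoxifen with the activating MACC, or 1.26 on the log2 scale (SE 0.36; adjusted p 0.0407 with edgeR). With the neutral MACC FADS2 was at 13.5, 8.6 and 11.8 under vehicle and 29.9, 20.5 and 24.4 under tamoxifen, so in that line it was higher where FEN1 was lower. With the repressive MACC FADS2 was at 29.4, 39.5 and 40.4 under vehicle and 59.2, 37.1 and 35.6 under tamoxifen. These groups overlapped, and the first tamoxifen library was the highest, as for FEN1. FADS2 was also 1.69 higher in the repressive than in the neutral vehicle group (SE 0.39, adjusted p 0.000821), where FEN1 differed by 0.02 (SE 0.45). The part of shared reads in either value was not tested.

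The listed replicative helicase genes that were tested showed no direction common to all of them. MCM7 was at 25.8, 40.5 and 41.6 normalized counts under vehicle and 19.3, 24.2 and 18.4 under tamoxifen in the activating line, with no overlap and a log2 fold change of -0.80 (SE 0.39). In the neutral line it went from 26, 14.3 and 13.8 to 22.2, 23.4 and 45.8, a difference of 0.76 (SE 0.40) in overlapping groups. The effects of these lines differed by -1.56 (SE 0.56), with an adjusted p of 0.391 in edgeR and none in DESeq2. AP4M1 on the opposite strand was at 938, 772 and 814 under vehicle and 862, 729 and 793 under tamoxifen in the activating line, without a call (log2 fold change -0.08, SE 0.09, adjusted p 0.672). MCM2 was at 37, 30.5 and 27.6 under vehicle and 19.4, 23.2 and 14.7 under tamoxifen in the repressive line. All of its tamoxifen values were below all vehicle values, and the difference of -0.73 on the log2 scale (SE 0.41, adjusted p 0.277) was not called. In the neutral and activating line MCM2 differed by -0.33 (SE 0.42) and 0.22 (SE 0.38). MCM5 differed by -0.17, -0.63 and 0.25 in the neutral, repressive and activating line, with SE near 0.65, and MCM4 by 0.43, -0.34 and 0.52. MCM2, MCM4 and MCM5 were thus each lower under tamoxifen in the repressive line and higher in the activating line, without a call. MCM7 had the other sign in both lines (0.08, SE 0.41, and -0.80).

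**Figure D3:**
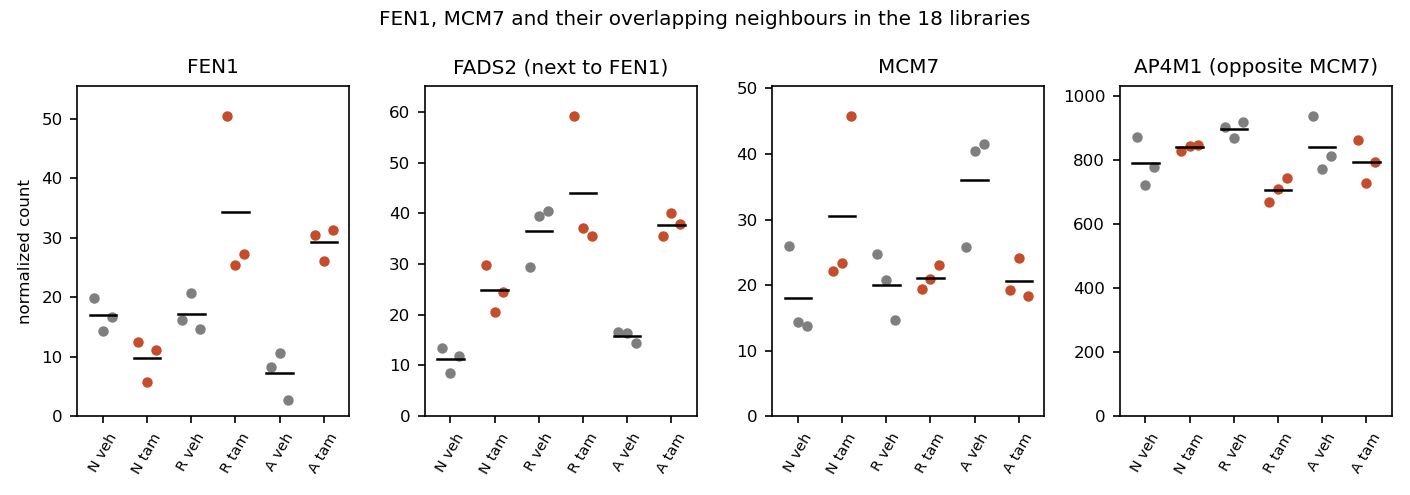
Normalized counts per library (points) with group means (bars) for FEN1, its same-strand neighbour FADS2, MCM7 and its opposite-strand neighbour AP4M1; N, R and A are the neutral, repressive and activating lines, veh is vehicle (grey) and tam is tamoxifen (orange). FEN1 lies between 26.1 and 31.3 in the activating tamoxifen libraries and at or below 10.6 in their vehicle libraries, and AP4M1 in the repressive line falls from at least 870 to at most 745.

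The other S phase genes gave small or poorly measured differences. UHRF1, which brings DNA methylation to newly made strands, was at 3.7, 12.6 and 10.9 normalized counts under vehicle and 20.3, 28.8 and 12 under tamoxifen in the activating line. The groups overlapped, and the log2 fold change was 1.17 (SE 0.69, edgeR adjusted p 0.57). TYMS, which makes thymidylate, differed by -0.43, -0.38 and 0.35 in the 3 lines in the same order, and CCNE2 by -0.15, 0.37 and 0.01. NASP and CHAF1B differed by at most 0.87 in size, with SE up to 1.17 for CHAF1B, and the 95% intervals of CHAF1B reached beyond a 2-fold change in both directions.

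Among the G2/M genes, NCAPD2 and HMGB2 were the best measured. NCAPD2 was between 147 and 196 normalized counts in all 18 libraries, and its log2 fold changes were -0.12, -0.16 and 0.15, each with an SE of 0.15 or below. Its vehicle and tamoxifen values overlapped in each line. HMGB2 was at 60.8, 82.6 and 67.1 under vehicle and 67, 53.4 and 41.9 under tamoxifen in the repressive line (log2 fold change -0.37, SE 0.26, adjusted p 0.445), and at 54.1, 61.2 and 70 against 60.7, 81.8 and 86.5 in the neutral line (0.30, SE 0.26). The effect in the repressive line was lower than that in the neutral line by 0.68 (SE 0.37, adjusted p 0.295). MKI67, the antigen of the Ki-67 stain, differed by -0.09, -0.08 and 0.26 with SE from 0.36 to 0.37, and its values under tamoxifen in the activating line ranged from 25.1 to 61.7. TOP2A, the topoisomerase that untangles sister chromatids, differed by -0.62, -0.22 and 0.00.

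The tested genes of the spindle and of the exit from mitosis ran in both directions, and none was called. UBE2C was at 19.9, 18 and 21.1 normalized counts under vehicle and 15.5, 7 and 14.7 under tamoxifen in the repressive line, and at 30.4, 21.2 and 27.2 against 17.2, 14 and 18.4 in the activating line. In both lines all tamoxifen values were below all vehicle values, with log2 fold changes of -0.65 (SE 0.50) and -0.67 (SE 0.47), and edgeR adjusted p of 0.497 and 0.664. CDC20, a co-activator of the anaphase-promoting complex, differed by 0.17, -0.05 and 0.15. TACC3, which steadies spindle microtubules, was at 19.9, 20.7 and 17.5 under vehicle and 15.5, 11.6 and 12.6 under tamoxifen in the repressive line (-0.54, SE 0.46), but at 11.4, 7.7 and 16.7 against 17.3, 17.5 and 18.3 in the neutral line (0.57, SE 0.47). The difference between these effects was -1.11 (SE 0.65, adjusted p 0.357). TUBB4B was at 39.9, 36.8 and 23 under vehicle and 65, 31.3 and 49.3 under tamoxifen in the repressive line, with overlap (0.55, SE 0.35, adjusted p 0.359). The spindle factor TPX2 differed by 0.53, -0.39 and 0.24 in the neutral, repressive and activating line (SE 0.50 to 0.52), the microtubule-binding protein NUSAP1 by 0.60, 0.18 and -0.21 (SE 0.63 to 0.69) and CKAP5, which helps microtubules grow, by 0.80, 0.58 and -0.49 (SE 0.73 to 0.78). In the repressive line TPX2 was at 16.1, 16.2 and 20.2 under vehicle and 11.6, 12.8 and 15.7 under tamoxifen, without overlap. SMC4 was at 22.1, 17.4 and 21.7 against 10.1, 12.1 and 12 in the activating line, without overlap (-0.84, SE 0.51, edgeR adjusted p 0.6). Its opposite row TRIM59 differed there by -0.03 (SE 0.09). ANLN, a cytokinesis gene with a mean count of 6.39, had the largest difference of the tested G2/M genes in the activating line. It was at 2.8, 9.7 and 1.8 under vehicle and 12.2, 9.3 and 10.1 under tamoxifen, with overlap (log2 fold change 1.16). That value lay between 0.767 and 2.205 with 1 library left out at a time.

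Comparing tamoxifen effects between lines gave no call among the 24 genes in the DESeq2 fit as reported. The repressive effect against the neutral one had 0 called (3.85% of all genes), the activating against the neutral 0 (0.619%) and the activating against the repressive 0 (4.25%), where 13, 2 and 17 of the 24 received an adjusted p. At an unadjusted p under 0.05 there were 1, 2 and 0 of 24, beside 13.9%, 7.41% and 13.4% of all genes. EdgeR called 0, 1 (FEN1) and 0 of 24, beside 2.65%, 0.292% and 3.15% of all genes. For the activating against the repressive effect, MCM2 had the lowest p of the 24 genes, with a difference of 0.95 (SE 0.56, adjusted p 0.389).

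Some opposite rows were called, and none was tested against its cell cycle gene. Of the 11 opposite rows that were tested, 3 were called in the repressive line under tamoxifen, beside 9.65% of all genes. AP4M1, opposite MCM7, was at 905, 870 and 921 normalized counts under vehicle and 671, 709 and 745 under tamoxifen. All tamoxifen values were below all vehicle values, and AP4M1 fell by 0.34 on the log2 scale (SE 0.09, adjusted p 0.00214). MCM7 itself was at 24.7, 20.7 and 14.7 against 19.4, 20.9 and 23.1 in the same libraries, a difference of 0.08 (SE 0.41; 95% interval -0.73 to 0.89, which holds the AP4M1 value). ENOSF1, opposite TYMS, rose from 658, 553 and 596 to 671, 744 and 822 (0.31, SE 0.10, adjusted p 0.025), and TYMS went from 24.7, 18.9 and 21.1 to 9.7, 29 and 11.5 (-0.38, SE 0.51). ENOSF1 was not called with edgeR (adjusted p 0.0539), when counts were scaled by library totals (0.309), or without replicate 2 or 3 of either group (0.0606 to 0.178). It was also higher in the repressive than in the neutral vehicle group, by 0.49 (SE 0.11, adjusted p 0.000207), and higher there than in the activating vehicle group (-0.43 for activating over repressive, adjusted p 0.00329). GSE1, which touches the helicase factor GINS2 by only 7 bases, fell from 94, 83.5 and 81.8 to 34.9, 33.7 and 33.5, or -1.34 on the log2 scale (SE 0.27, adjusted p 2.45e-05), and GINS2, which was not tested, had 0 to 2 counts in every library. When each gene was summed with its opposite row, MCM7 with AP4M1 fell by 0.33 (SE 0.09, adjusted p 0.00247), TYMS with ENOSF1 rose by 0.29 (SE 0.10, adjusted p 0.0412) and GINS2 with GSE1 fell by 1.31 (adjusted p 2.98e-05). These sums follow the opposite row, which supplies nearly all of the counts. The other 8 opposite rows tested, among them TRIM59 and INTS8, were called in none of the 9 comparisons by DESeq2.

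The summed level of each list was set side by side across libraries, with no test. The 27 S phase genes together were at 264 ± 10.7 CPM (SD, n = 3) under vehicle and 242 ± 36.3 under tamoxifen in the neutral line, and at 300 ± 44 and 267 ± 37.2 in the repressive line. In the activating line they were at 302 ± 18.3 and 362 ± 18.7. The 3 activating tamoxifen libraries lay between 348 and 384 CPM, above the other 15 libraries, whose highest was 333. Without FEN1 the activating groups were at 291 ± 19.9 and 320 ± 16.8, with ranges of 269 to 307 and 310 to 339 that still did not overlap. The lead over all other libraries was lost without FEN1, since the repressive vehicle group reached 310.2 CPM and the lowest activating tamoxifen library was at 309.5. The 28 G2/M genes together were at 605 ± 40.1 and 641 ± 144 in the neutral, 676 ± 29.3 and 571 ± 86.6 in the repressive and 656 ± 13.8 and 702 ± 51.0 in the activating line. In the neutral tamoxifen group the third library reached 805 while the lowest was at 537, and vehicle and tamoxifen overlapped in every line. In the repressive line the ratio of tamoxifen to vehicle for the G2/M genes was 0.844 in CPM and 0.923 with the size factors of the DESeq2 fit, and for the S phase genes it was 0.892 and 0.978.

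**Figure D4:**
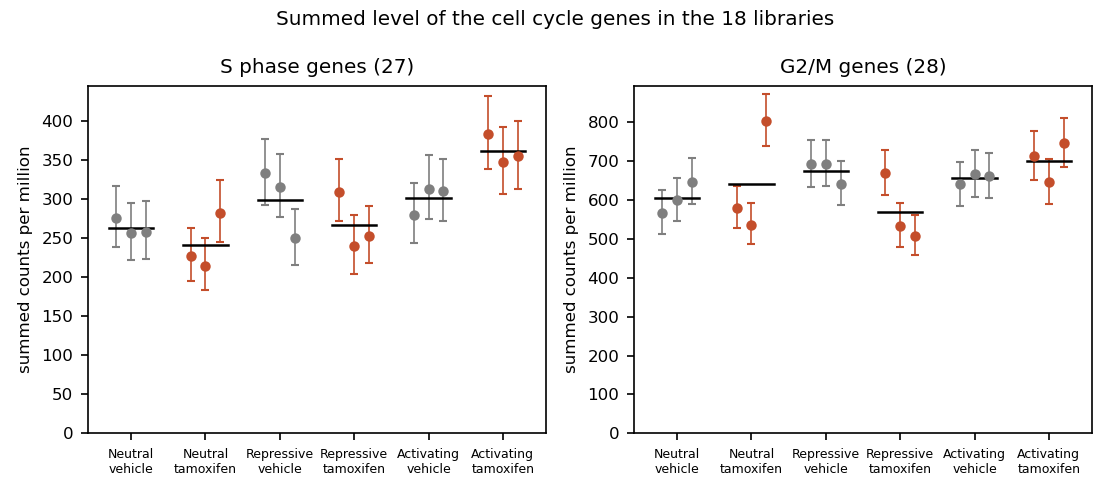
Summed CPM of the 27 S phase and the 28 G2/M genes in each library (points, with exact 95% Poisson intervals that cover counting error only) and the group means (black bars), for vehicle (grey) and tamoxifen (orange). S phase values in the activating tamoxifen group lie between 348 and 384 CPM, and the third neutral tamoxifen library stands at 805 CPM for G2/M genes.

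Between the vehicle-treated lines no cell cycle gene was called, but few differences were well bounded. DESeq2 called 0 of 24 between the repressive and neutral vehicle groups (2.51% of all genes), 0 between the activating and neutral groups (0.808%) and 0 between the activating and repressive groups (1.72%), and edgeR also called 0 in each (1.89%, 0.0688% and 1.24% of all genes). Only 14, 0 and 13 of the 24 received an adjusted p from DESeq2, so none could be called between the activating and neutral groups, and the 95% interval lay inside a 2-fold change in 7, 6 and 7 of 24. MCM4 was 1.15 higher on the log2 scale in the repressive than in the neutral vehicle group (SE 0.61, edgeR adjusted p 0.522). At an unadjusted p under 0.05 there were 0, 2 and 2 of 24, namely MCM7 and FEN1 in both comparisons of the activating line, beside 10.4%, 7.1% and 10.1% of all genes. MCM7 in the activating vehicle group was above that in the neutral vehicle group by 1.00 on the log2 scale (SE 0.40) and above the repressive one by 0.85 (SE 0.39, adjusted p 0.287), and FEN1 was below the repressive one by 1.26 (SE 0.50, adjusted p 0.181, log2 fold change -1.26). RPA2, a single-strand DNA binding subunit that was too low to test, had 2 to 8 counts in the 6 neutral libraries and 0 to 3 in the 12 others.

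CDKN1A gave no call in any comparison. Its normalized counts were 18.7, 17.2 and 4.9 under vehicle and 6.7, 18.5 and 19.3 under tamoxifen in the neutral line, 12.3, 7.2 and 15.6 against 12.6, 5.8 and 21 in the repressive line, and 8.3, 9.7 and 20.8 against 13.2, 13 and 1.8 in the activating line. The groups overlapped in each line, and the log2 fold changes were 0.12 (SE 0.64), 0.17 (SE 0.65) and -0.48 (SE 0.66). Other p53 targets were taken from a list of 22 genes, of which 9 were tested. With the repressive MACC 1 of 9 rose and 0 fell, beside 5.62% and 4.02% of all genes (58.3% of all calls were higher, and 37.4% with total-count scaling), and none was called in the neutral (0.774%) or activating line (2.8%), where only 1 of 9 in each received an adjusted p. At an unadjusted p under 0.05 there were 0, 2 and 2 of 9 in the neutral, repressive and activating lines (7.75%, 19.7% and 10.4% of all genes). In the repressive line 1 was higher and 1 lower, and in the activating line both were lower. EdgeR called 0, 1 and 0 (all genes 0.378%, 8.99% and 1.75%). Vehicle and tamoxifen values did not overlap in 0, 4 and 2 of 9 (13.3%, 24.2% and 16% of all genes). In the repressive line 3 of these were higher and 1 was lower. The lower one, GADD45A, was not called and went from 16.1, 15.3 and 17.5 to 4.9, 4.6 and 7.3 normalized counts. Of the higher ones, DDB2 went from 10.4, 13.5 and 11.9 to 21.4, 18.6 and 14.7. XPC went from 4.7, 6.3 and 3.7 to 7.8, 9.3 and 11.5, and neither was called. The one called higher there was SFN (14-3-3 sigma), which holds mitotic cyclin complexes in the cytoplasm and is also abundant in stratified epithelium. It was at 138, 126 and 135 normalized counts under vehicle and 308, 218 and 197 under tamoxifen, which is 0.86 on the log2 scale (SE 0.19, adjusted p 0.000132). SFN in the neutral line was at 98.9, 92.8 and 124.1 against 150.3, 105.2 and 147.5, with overlap. For the repressive against the neutral effect, 0 of 9 p53 targets were called (3.85% of all genes), and 5 of 9 received an adjusted p. In the activating line SFN was at 136, 140 and 168 against 166, 113 and 146, and the effect was 0.93 lower than in the repressive line (log2 difference -0.93, SE 0.27, adjusted p 0.0132).

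Upstream regulators of the cycle came from a list of 54 genes, for which 26 rows were tested. One of these rows carries the symbol RBL1 but is a gene opposite to it, and the RBL1 gene itself (mean count 1) was not tested. Under tamoxifen 0 were called in the neutral line, 1 rose in the repressive line and 1 rose in the activating line, beside 0.327%, 5.62% and 1.34% of all genes called higher, and 0 fell in each line, beside 0.447%, 4.02% and 1.46% called lower. Only 2, 20 and 4 of the 26 received an adjusted p, so the calls for the neutral and activating lines rest on few genes. Without the withholding step 0, 1 and 2 were called, and at an unadjusted p under 0.05 there were 2, 3 and 5 (7.75%, 19.7% and 10.4% of all genes). CDKN1C (p57), a kinase inhibitor of the same family as CDKN1A, was the one that rose with the repressive MACC, from 5.7, 5.4 and 4.6 to 15.5, 11.6 and 19.9 normalized counts (log2 fold change 1.59, SE 0.56, adjusted p 0.0399). That call was lost without any one of 5 of the 6 libraries, all but the second tamoxifen library, with adjusted p from 0.0772 to 0.152, and with scaling by library totals (0.0707). In the activating line CDKN1C went from 9.2, 4.8 and 10 to 42.6, 26.1 and 55.3, again without overlap, a log2 fold change of 2.36 (SE 0.49) for which DESeq2 gave no adjusted p and edgeR gave 0.00134. In the neutral line it was at 13.5, 6.7 and 8.9 against 9.6, 9.7 and 12.2, and its effect was smaller than in the activating line by 2.24 (SE 0.72), which was not called (edgeR adjusted p 0.228). PKMYT1, the kinase that holds CDK1 inactive, was the one called in the activating line, at 911, 858 and 889 against 1106, 987 and 1125 (0.28, SE 0.08, adjusted p 0.00828, with edgeR 0.0972, and 0.0758 to 0.0986 without vehicle replicate 2 or tamoxifen replicate 1 or 3), and it shares 1228 exonic bases with PAQR4 on the opposite strand.

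Cyclin D1 (CCND1), which starts the passage through G1, differed in opposite directions under tamoxifen in the repressive and activating lines. It was at 22.8, 32.3 and 45.9 normalized counts under vehicle and 55.3, 65 and 54.5 under tamoxifen with the repressive MACC, and at 39.6, 37.7 and 40.7 against 10.1, 23.3 and 24 with the activating MACC. In neither line did vehicle and tamoxifen overlap. The effects within each line were not called (log2 fold changes 0.79, SE 0.33, and -1.03, SE 0.36), also not with edgeR or without the withholding step. In the activating line only 4 of the 26 rows of regulators received an adjusted p from DESeq2. The difference between the effects of the repressive and activating lines was called, at -1.82 (SE 0.49, adjusted p 0.00502). In the neutral line CCND1 was at 28.1, 24.9 and 18.7 against 27, 23.4 and 15.3. CCND1 shares 497 exonic bases with LTO1 on the opposite strand. Among the 26 rows of regulators, PKMYT1 was also called between vehicle groups, 0.47 higher in the repressive than in the neutral line (SE 0.08, adjusted p 4.17e-07) and lower in the activating than in the repressive line (log2 fold change -0.29, SE 0.08, adjusted p 0.00999). The last call was lost with edgeR (0.0756) and without repressive vehicle replicate 1 or 3 or activating vehicle replicate 2 or 3 (0.0541 to 0.0999).

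**Figure D5:**
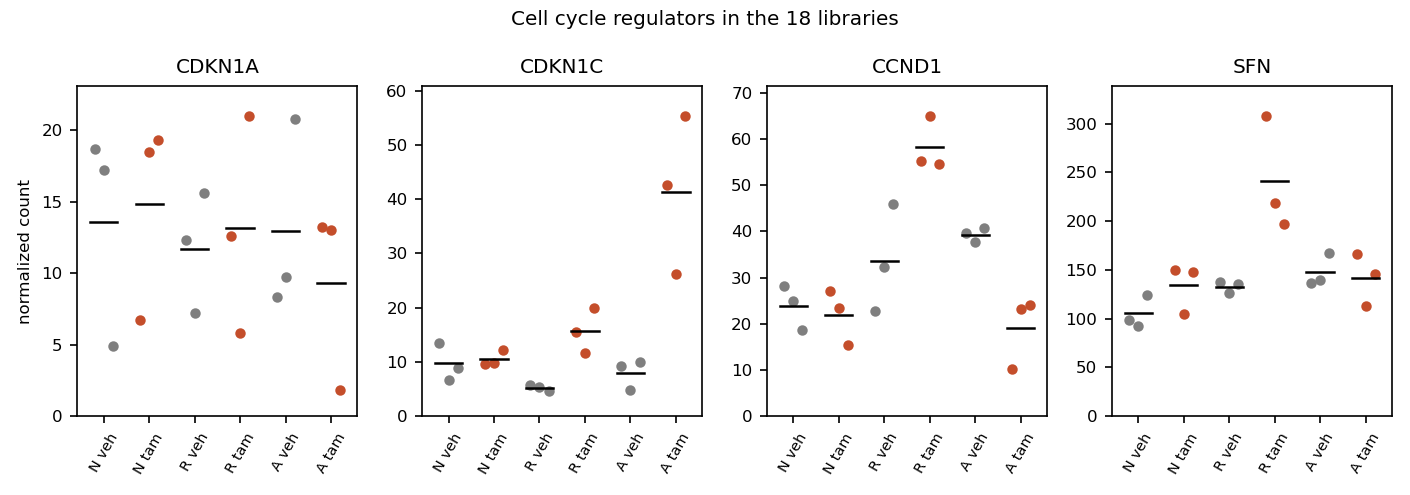
Normalized counts per library (points) with group means (bars) for the kinase inhibitors CDKN1A and CDKN1C, cyclin D1 (CCND1) and SFN; N, R and A are the neutral, repressive and activating lines, with vehicle in grey and tamoxifen in orange. CDKN1C lies between 26.1 and 55.3 in the activating tamoxifen libraries against at most 10 in their vehicle libraries, and CCND1 is higher under tamoxifen in the repressive line and lower in the activating line.

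Of the 8 epithelial markers, some were abundant and others low. The basal keratins KRT5 and KRT14 had 680 to 1135 and 435 to 857 counts per library, and KRT8 513 to 1011, whereas ITGA6 had 14 to 69, KRT18 14 to 36, TP63 4 to 25, CDH1 2 to 15 and EPCAM 0 to 8. KRT18 overlaps KRT8 on the opposite strand. Of the markers of other cells, 5 of 6 fibroblast, 3 of 4 leukocyte and both measured endothelial genes were at 0 in all 18 libraries. The summed level of the 8 epithelial markers was between 2660 and 3740 CPM, that of the fibroblast markers (COL1A1 alone) at most 16.7 CPM and that of the leukocyte markers (CD68 alone) between 11.8 and 37.9 CPM. Their part in the results was not tested.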

How the data were processed

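RNA was sequenced from 18 libraries of RWPE1 lines (6 groups of 3 biological replicates) prepared with a stranded mRNA kit. The authors quantified reads with Salmon 1.9.0 on GRCh37 and used DESeq2 1.28.0, per the submitters' processing notes; whether counting used the strand is not given in the sources used here. The deposited values are expected counts, estimated reads per gene, not scaled for depth or length (1.10% of values not whole), and were rounded. DESeq2 1.42.0 (R 4.3.3) was fitted over all 18 libraries with 1 mean per group to every gene that reached 10 counts in 3 or more libraries. Size factors were medians of ratios, and Wald p-values were adjusted over all genes tested by Benjamini-Hochberg, with 0.05 as the threshold. The tool's independent filtering withholds the adjusted p of low-count genes. Log2 fold changes are unshrunken, and normalized counts are counts divided by size factors. CPM are counts scaled to a library total of 1000000.

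The alternatives were edgeR 4.0.16 quasi-likelihood tests with TMM, total-count scaling, no filter on low counts, no independent filtering, a fit of the compared groups alone, a replicate block, summing each gene with its opposite row and leaving out each library in turn. Positions and exon overlaps are from GENCODE mapped to GRCh37, promoters from RefSeq on GRCh38.p14. The DESeq2 and edgeR scripts were tested on simulated data. Changes were set there only in genes with more counts than most of the cell cycle genes tested, so recovery at their levels was not tested. Within groups, libraries correlated at 0.891 or above and differed by more than sampling noise. P-values measure the spread between these replicates. The genes described are every gene called, fixed representatives of each role, the 3 with the lowest p in each tamoxifen comparison and interaction, the genes too low to test, by name, the opposite rows and the called genes of 2 pathway lists. RPA2, FADS2, ANLN, the p53 targets that were not called and the other values shown beside them were chosen after values were seen. The members and lists were chosen with earlier results of these data known.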

Additional observations from a re-analysis of the deposited data

Results flagged for a closer look

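The 5 results here were listed because the tamoxifen effect differed between lines by the test of the difference itself in DESeq2. The rows screened were the 24 cell cycle genes, 11 opposite rows, 26 rows of regulators and 9 p53 targets. Over all genes tested, 4.25% were called in the activating against the repressive line and 3.85% in the repressive against the neutral line. CCND1 differed between the activating and the repressive line by -1.82 on the log2 scale (SE 0.49, adjusted p 0.00502), and its adjusted p stayed under 0.05 in edgeR (0.0163). SFN differed between the same lines by -0.93 (SE 0.27, adjusted p 0.0132), a call lost without repressive tamoxifen replicate 1 (0.0942), activating vehicle replicate 3 (0.0599) or activating tamoxifen replicate 2 (0.0642) and with total-count scaling (0.0769). GSE1, the row opposite GINS2, differed between them by 1.82 (SE 0.37, adjusted p 5.6e-05) and between the repressive and the neutral line by -1.34 (SE 0.38, adjusted p 0.0103), the latter lost without the first neutral tamoxifen library (0.0724). AP4M1, the row opposite MCM7, differed between the repressive and the neutral line by -0.43 (SE 0.13, adjusted p 0.0156), with 0.0678 in edgeR, 0.0964 without the second neutral vehicle library and 0.0658 without the first repressive tamoxifen library. None of the 24 tested cell cycle genes was called in these comparisons by DESeq2, where 13, 2 and 17 received an adjusted p in the repressive against the neutral, the activating against the neutral and the activating against the repressive line. FEN1, which received none in the activating against the neutral line, differed there by 2.81 (SE 0.69) with an adjusted p of 0.0199 once the withholding step was left out. With 3 libraries a group, no library was tested for standing apart.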

How the results depend on the processing

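Under most alternatives the counts of called cell cycle genes stayed at 0. With the activating MACC 1 S phase gene, FEN1, was called with edgeR, with no filter on low counts, with no independent filtering and with only the groups compared, and leaving out single libraries gave 0 to 1 (called without the first vehicle library). In the activating against the neutral line 1 was called with edgeR and with no independent filtering, and 0 to 1 with a library left out (called without the second activating vehicle library). In the repressive against the neutral line 1 S phase gene was called with no filter (FEN1, adjusted p 0.048). Summing each gene with its opposite row gave 3 calls in the repressive line, for MCM7 with AP4M1, TYMS with ENOSF1 and GINS2 with GSE1. In the repressive against the neutral line 2 were called (the MCM7 and GINS2 sums), and in the activating against the repressive line 1 (the GINS2 sum). Between vehicle groups the TYMS sum was called for the repressive against the neutral and the activating against the repressive line. The fit as reported called 9.65%, 3.85%, 4.25%, 2.51% and 1.72% of all genes in these comparisons, in that order. These sums follow the opposite row, which supplies nearly all of the counts, so they are not calls of the cell cycle genes.

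Counts over all genes moved by over 1.5 times in these cases. EdgeR called 102 genes in the activating line (163 in the fit as reported), 17 in the activating against the neutral line (36), 22 in the neutral line (45) and 4 between the activating and neutral vehicle groups (47). Without independent filtering the activating against the neutral line had 22, the neutral line 26 and the activating against the neutral vehicle groups 8. Total-count scaling gave 29 in the latter, and a fit of only the compared groups gave 54 between the activating and repressive vehicle groups (100). With 1 library left out at a time the counts ranged from 94 to 130 in the activating line, 23 to 38 in the activating against the neutral line and 25 to 36 in the neutral line. Between vehicle groups they ranged from 2 to 53 in the activating against the neutral, 65 to 107 in the activating against the repressive and 97 to 137 in the repressive against the neutral. The lowest in the activating line (94) came without the second activating vehicle or the third activating tamoxifen library. The other lowest counts came without the third activating tamoxifen library (23), the third neutral tamoxifen library (25), the third activating vehicle library (2 and 65) and the second neutral or first repressive vehicle library (97). Total-count scaling moved the median log2 fold change of all genes in the repressive line from -0.02 to -0.16 and the share of its calls that were higher from 58.3% to 37.4%.

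The replicate numbers did not pair the samples: residual correlations of same-numbered libraries in different groups lay between -0.046 and 0.04 over 45 pairs, and 3 of 18 libraries correlated best with their own number. The replicate block gave 39, 538 and 134 calls in the neutral, repressive and activating lines and moved no count of calls by over 1.5 times.

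Of the other named results, AP4M1 and GSE1 in the repressive against the neutral line, ENOSF1, PKMYT1, SFN between the activating and the repressive line and CDKN1C in the repressive line lost their call under some alternatives, and none changed direction while called. CDKN1C in the repressive line got no adjusted p with only the groups compared. The cause of these shifts was not tested, beyond the smaller numbers of libraries or genes that some alternatives use.

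With 675609 to 792282 counts per library, 32 of the 56 genes fell under the filter on low counts, and most of the tested ones were not bounded within a 2-fold change. The part of depth and of the counting strand in these low counts was not tested.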
